A study of Mus musculus with 6 samples.

Results

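Noct, the TOB adaptor genes Tob1 and Tob2, and 7 genes of the mRNA deadenylases were followed in muscle of mice made to lack Igf2 in muscle fibres. The 10 genes were taken by symbol from a table of 54532 genes, and each matched 1 row. Noct and Tob2 were chosen because they were higher in Igf2 cKO than in control muscle in these same libraries, so their values describe the choice and no call on that difference is support for it. The other 8 genes were chosen for what their proteins do. RNA of muscle tissue was sequenced from 3 Igf2 cKO and 3 control mice on a C57BL/6 background. The Igf2 cKO mice were Mck-Cre+; Igf2f/f, with loxP sites around exon 2 of both Igf2 alleles and a Cre transgene driven from the promoter of muscle creatine kinase, which works in differentiated striated muscle. The controls were Mck-Cre-; Igf2f/f littermates, so both groups carried the floxed alleles. The muscle, the age and the sex are not given in the labels, and the series' title links Igf2 deficiency with sarcopenia, a wasting of muscle.

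The poly(A) tail protects a messenger RNA, and its removal by deadenylases is usually the first and rate-setting step of mRNA decay. PAN2-PAN3 is held to trim long tails first, after which the CCR4-NOT complex removes the rest with a CCR4-type nuclease (CNOT6 or CNOT6L) and a CAF1-type nuclease (CNOT7 or CNOT8). TOB1 and TOB2 belong to the BTG/TOB family of antiproliferative proteins and bridge CNOT7 or CNOT8 to the cytoplasmic poly(A)-binding protein. PARN is a separate nuclease that also matures small noncoding RNAs. Noct encodes nocturnin, a rhythmically expressed protein of the CCR4-type nuclease fold that was first described as a deadenylase, while work on the human protein found an NADP(H) phosphatase activity.

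The region before the transcription start is shown for Noct, the higher gene with the smaller spread among libraries, and for Tob1, the TOB gene whose libraries did not separate. Both are the 250 bases before the start in RefSeq on GRCm38.p6, on the plus strand, at chr3:51224197-51224446 for Noct and chr11:94211204-94211453 for Tob1, and capitals mark a match to a searched motif.
Noct: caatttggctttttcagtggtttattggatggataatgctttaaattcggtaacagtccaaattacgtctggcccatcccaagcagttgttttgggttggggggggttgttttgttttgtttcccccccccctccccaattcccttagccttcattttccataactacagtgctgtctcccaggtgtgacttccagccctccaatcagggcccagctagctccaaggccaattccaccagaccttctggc
Tob1: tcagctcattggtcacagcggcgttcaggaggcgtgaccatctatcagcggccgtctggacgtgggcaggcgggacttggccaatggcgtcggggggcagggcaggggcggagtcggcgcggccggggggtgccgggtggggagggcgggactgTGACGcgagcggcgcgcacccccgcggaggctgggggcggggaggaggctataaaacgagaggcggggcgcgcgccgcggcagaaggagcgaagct
The 2 stretches differ in base composition, with G or C at 49.6% of the bases before Noct and 73.6% before Tob1, beside a median of 52.4% over 32817 mouse windows of this kind. RefSeq windows were found for 9 of the 10 genes, 14 windows in all, of which some of Cnot6l and of Cnot8 overlap each other. On both strands, AGAACA (the repeat unit of the glucocorticoid response element), CACGTG (the E-box) and TGACTCA (the AP-1 site) matched in 0 of the 14 windows, against 16.1%, 6.02% and 4.46% of all windows. TGACG, the repeat unit of the cAMP response element, matched in 5 of the 14 windows, against 17.7% of all windows. These 5 lay before Tob1 (beginning 96 bases upstream), Cnot6, Cnot8, Pan2 and Parn, and neither the Noct nor the Tob2 window held it. The Tob2 window is not printed because GENCODE M21 places Tob2 exons inside it. Exons of the same gene there also reach into the Cnot6 window and into some of the Cnot6l and Cnot8 windows. The Cnot6 and Cnot8 windows with TGACG are among these, so not every match lies in a window free of exons.

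Noct RNA was about 2-fold more abundant in every Igf2 cKO library than in the controls. Noct (ENSMUSG00000023087, chromosome 3, 51224447 to 51251644, plus strand, GRCm38) stood at 57.6, 60.9 and 55.7 CPM in Igf2 cKO replicates 1 to 3, where CPM is the count scaled to library size with TMM factors. In control replicates 1 to 3 it stood at 23.8, 29.0 and 26.5 CPM. The groups did not overlap, and the lowest Igf2 cKO library lay well above the highest control. The means were 58.1 ± 2.63 CPM in Igf2 cKO and 26.4 ± 2.61 CPM in control muscle (SD, n = 3 each), from counts of 942 to 1032 and 405 to 519. The log2 fold change of Igf2 cKO over control was 1.13 ± 0.10 (SE, edgeR), a fold of 2.2. The authors' deposited table sets 1 Igf2 cKO library against the control of the same number, and lists Noct there at 1.28 (log2) for replicate 1, 1.07 for replicate 2 and 1.08 for replicate 3.

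Tob2 was higher by a similar factor, with more spread among the Igf2 cKO libraries. Tob2 (ENSMUSG00000048546, chromosome 15, 81848272 to 81858796, minus strand) stood at 320.7, 197 and 325.6 CPM in Igf2 cKO replicates 1 to 3. In control replicates 1 to 3 it was at 123, 95.3 and 112 CPM. Igf2 cKO replicate 2 was the low library of its group and still lay above all 3 controls. The means were 281 ± 72.6 CPM in Igf2 cKO and 110.2 ± 14.1 CPM in control muscle (SD, n = 3 each), with a log2 fold change of 1.35 ± 0.20 (SE, edgeR). In the authors' deposited table the log2 fold changes of Tob2 were 1.38, 1.05 and 1.54. Igf2 cKO replicate 2 also had the highest share of counts from mitochondrial DNA, 10.6% against 4.88% to 8.43% in the other 5 libraries, and the part of this in its Tob2 level was not tested.

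**Figure D1:**
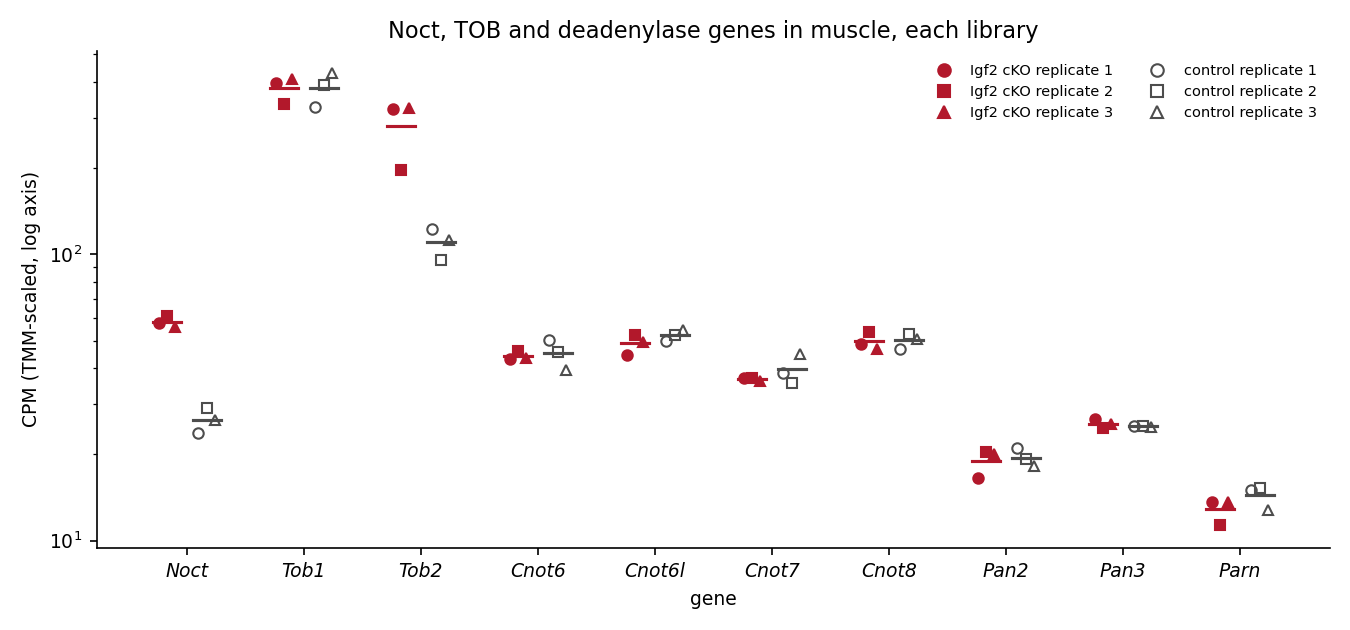
CPM of each gene (log axis) in the 3 Igf2 cKO libraries (filled red) and the 3 control libraries (open grey), with a bar at each group's mean. Noct and Tob2 are the genes whose groups do not overlap, and Tob2 in Igf2 cKO replicate 2 (197 CPM) lies below the other 2 Igf2 cKO libraries.

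Of the 10 genes, Noct and Tob2 were past an adjusted p of 0.05 by edgeR's quasi-likelihood test over all 14867 genes tested, and the same 2 had groups that did not overlap. The background of that threshold is 0.182% of tested genes for higher values in Igf2 cKO (0.249% in either direction, and 0.229% with limma-voom), and 7.83% of tested genes had higher groups without overlap (7.67% lower, 15.5% in either direction). Both genes were picked on this contrast, so nothing is read from the count. With each of the 6 libraries left out in turn, the log2 fold change lay between 1.06 and 1.20 for Noct and between 1.23 and 1.55 for Tob2. As a limit on Tob2, 5 of those 6 fits, all but the one without Igf2 cKO replicate 2, left it short of the threshold. The member next nearest to the threshold was Parn, at a log2 fold change of -0.16.

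Tob1, the close paralogue of Tob2, gave no detectable difference. It stood at 397.5, 334 and 409 CPM in Igf2 cKO replicates 1 to 3 and at 327.6, 391 and 429 CPM in control replicates 1 to 3. The Igf2 cKO values lay inside the control range, and control libraries held both the highest and the lowest value. The means were 380.2 ± 40.3 CPM in Igf2 cKO and 382 ± 51.2 CPM in control muscle (SD, n = 3 each). Igf2 cKO over control gave a log2 fold change of -0.01 ± 0.14 (SE), with a 95% interval of -0.33 to 0.31 and an edgeR adjusted p of 0.99.

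Because Tob2 differed and Tob1 did not pass the test, the make-up of the TOB pair differed between the groups. On the per-length scale of the authors' FPKM, Tob2 made up 21.7%, 16.9% and 21.5% of Tob1 plus Tob2 in Igf2 cKO replicates 1 to 3. It made up 11.4%, 7.72% and 8.24% in control replicates 1 to 3. The shares did not overlap, which follows from the choice of Tob2 and is not a separate result. The summed FPKM of the pair did overlap, at 220, 175 and 228 in Igf2 cKO replicates 1 to 3, against 160, 184 and 203 in control replicates 1 to 3. Tob1 thus remained the larger part of the pair in each of the 6 libraries.

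**Figure D2:**
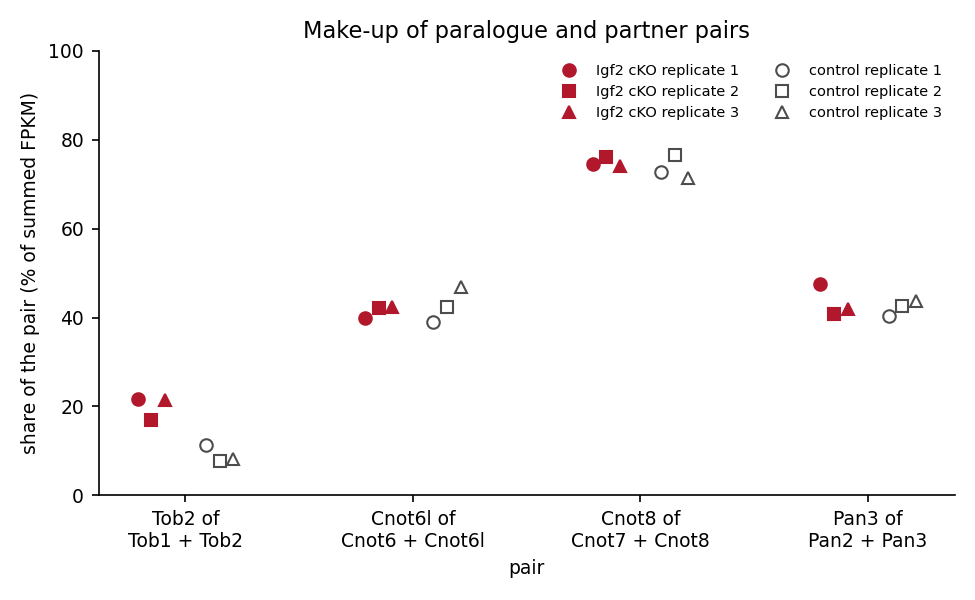
Share of the named gene in the summed FPKM of a pair (percent, linear axis from 0), with 1 point per library, Igf2 cKO filled red on the left and control open grey on the right of each pair. Tob2 lies at 16.9% to 21.7% in Igf2 cKO and 7.72% to 11.4% in control libraries, while the other 3 pairs overlap.

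The nuclease subunits of CCR4-NOT did not pass the test. Cnot6, a CCR4-type nuclease gene, was at 43.2, 45.9 and 43.3 CPM in Igf2 cKO replicates 1 to 3 and at 50.2, 45.5 and 39.6 CPM in control replicates 1 to 3. All 3 Igf2 cKO values lay inside the control range, with a log2 fold change of -0.03 ± 0.11 (SE, edgeR adjusted p = 0.958). Its paralogue Cnot6l was at 44.7, 52.3 and 49.5 CPM in Igf2 cKO and at 49.9, 52.1 and 54.5 CPM in control replicates 1 to 3. The log2 fold change of Cnot6l was -0.10 ± 0.10 (SE, 95% interval -0.31 to 0.12, edgeR adjusted p = 0.811). On the listed lengths Cnot6l made up 41.4% ± 1.38 of the FPKM of the CCR4-type pair in Igf2 cKO and 42.7% ± 4.0 in control muscle (SD, n = 3 each).

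The CAF1-type nuclease genes, whose products TOB proteins bind, did not pass the test either. Cnot7 was at 36.9, 37.0 and 36.2 CPM in Igf2 cKO replicates 1 to 3, against 38.5, 35.5 and 44.8 CPM in control replicates 1 to 3. The high value of control replicate 3 set the control spread. Cnot7 had a log2 fold change of -0.11 ± 0.11 (SE), with a 95% interval of -0.35 to 0.13 (edgeR adjusted p = 0.804). Cnot8 was at 48.8, 53.8 and 46.7 CPM in Igf2 cKO and at 46.8, 52.7 and 50.7 CPM in control replicates 1 to 3, a log2 fold change of -0.01 ± 0.10 (SE, edgeR adjusted p = 0.984). Cnot8 held 74.9% ± 1.18 of the FPKM of the CAF1-type pair in Igf2 cKO and 73.6% ± 2.68 in control muscle (SD, n = 3 each).

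Pan2, Pan3 and Parn completed the deadenylases. Pan2, the catalytic subunit of PAN2-PAN3, was at 16.6, 20.4 and 20.0 CPM in Igf2 cKO replicates 1 to 3 and at 21.1, 19.2 and 18.2 CPM in control replicates 1 to 3 (log2 fold change -0.04 ± 0.12 SE, edgeR adjusted p = 0.949). Pan3, the subunit that brings the enzyme to poly(A)-binding protein, was the most even gene of the set, at 26.6, 24.7 and 25.5 CPM in Igf2 cKO and at 25.2, 25.1 and 24.98 CPM in control replicates 1 to 3. Its log2 fold change was 0.03 ± 0.09 (SE, 95% interval -0.17 to 0.22, edgeR adjusted p = 0.951). Parn had the lowest counts of the set, between 183 and 278, and stood at 13.6, 11.3 and 13.7 CPM in Igf2 cKO and at 15.1, 15.3 and 12.8 CPM in control replicates 1 to 3. The log2 fold change of Parn was -0.16 ± 0.13 (SE, 95% interval -0.46 to 0.14, edgeR adjusted p = 0.755).

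Across the 8 genes chosen for function, the log2 fold change lay between -0.16 (Parn) and 0.03 (Pan3). Of the 8, 7 lay below 0, where 7320 of all 14867 tested genes did, and nothing is read from these signs. None was called, with 0 of 8 at an adjusted p under 0.05 by edgeR, DESeq2 or limma-voom and 0 of 8 at an unadjusted p under 0.05, where 9.93% of tested genes were under that unadjusted threshold. Their 95% intervals ran from -0.46 (Parn) to 0.31 (Tob1), so a 2-fold difference in either direction lay outside all 8 intervals. The coefficient of variation within a group was at most 13.4% (Tob1, controls). In the authors' deposited table the 3 log2 fold changes of these 8 genes had mixed signs, as with 0.28, -0.23 and -0.07 for Tob1, in all but Cnot6l, which had -0.16, 0.00 and -0.14.

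**Figure D3:**
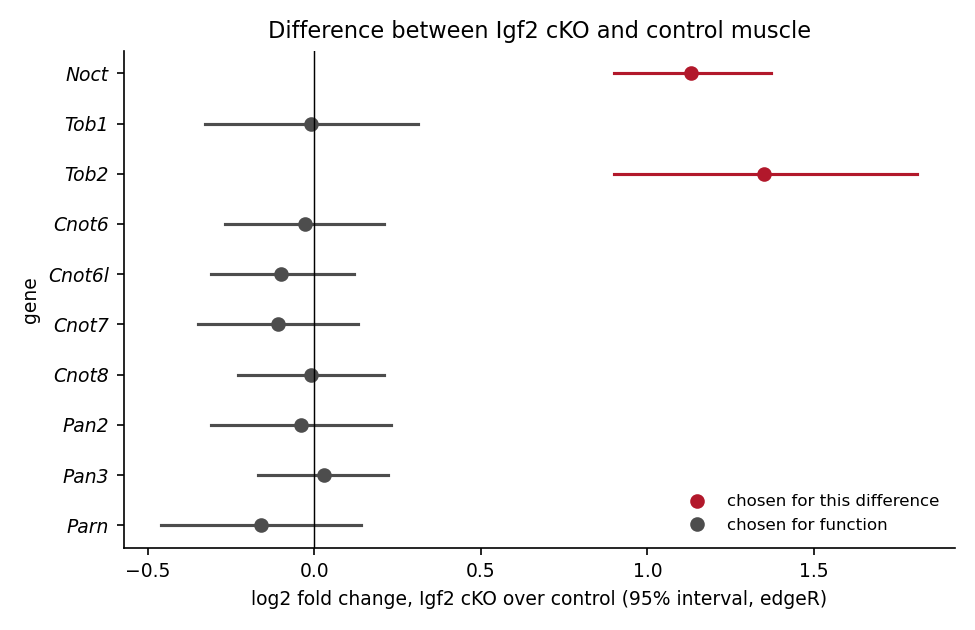
Log2 fold change of Igf2 cKO over control for the 10 genes (points) with 95% intervals (lines) from edgeR, in red for the genes chosen for this difference and in grey for those chosen for function. Noct at 1.13 and Tob2 at 1.35 stand apart, and the 8 grey intervals all include 0.

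Levels can be compared between genes per length, for which the authors' FPKM was used. Tob1 was the most abundant gene of the set, with a mean of 166 ± 18.0 FPKM over the 6 libraries (SD), above Tob2 in each library. Next came Tob2, at 42.0 ± 10.9 FPKM in Igf2 cKO and 16.4 ± 2.09 FPKM in control muscle, and Cnot8, at 18.8 ± 1.34 FPKM in Igf2 cKO and 18.9 ± 1.13 FPKM in control muscle (SD, n = 3 each). Tob2 lay above Cnot8 in 4 of 6 libraries, the 3 Igf2 cKO libraries and control replicate 1, so this pair of neighbours was not separated over all libraries. Cnot6 (6.71 ± 0.53 FPKM) and Cnot7 (6.52 ± 0.58 FPKM, SD, n = 6 each) overlapped as well, and Cnot7 lay above Cnot6l (4.87 ± 0.33 FPKM) in 6 of 6. Noct was at 5.42 ± 0.24 FPKM in Igf2 cKO muscle, above Cnot6l in those 3 libraries, and at 2.46 ± 0.24 FPKM in control muscle, below Cnot6l in those 3 (SD, n = 3 each). At the low end were Parn (2.52 ± 0.27 FPKM), Pan2 (2.26 ± 0.20 FPKM) and Pan3 (1.69 ± 0.04 FPKM, SD, n = 6 each). In control muscle Noct was among them, its mean lying between those of Parn (2.65 FPKM) and Pan2 (2.29 FPKM) there. The ranges of Parn and Pan2 overlapped, and on the listed lengths Pan3 lay under Pan2 in each library.

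The listed gene length behind these FPKM spans the exons of all transcripts and is much longer than 1 transcript for some genes. For Noct it is 10658 bases, against 3059 bases for the principal transcript in GENCODE M21. For Tob1, with 1 transcript, both are 2288 bases. Rescaled to principal transcripts, Noct was at 18.9 ± 0.82 FPKM in Igf2 cKO and 8.59 ± 0.85 FPKM in control muscle (SD, n = 3 each). In Igf2 cKO muscle its mean then lay above that of Cnot6 (17.6 ± 0.61 FPKM), and in control muscle below that of Cnot7 (13.2 ± 1.59 FPKM, SD, n = 3 each). The order of Pan2 and Pan3 turned, with Pan3 at 4.86 to 5.21 FPKM above Pan2 at 3.69 to 4.71 FPKM in each of the 6 libraries. By the mean over all 6 libraries, Tob1, Tob2, Cnot8 and Cnot6 held their places. Shares within pairs also moved, to 28.6% ± 3.51 in Igf2 cKO and 13.9% ± 2.88 in control muscle for Tob2 in the TOB pair. For Cnot6l in the CCR4-type pair they moved to 24.4% ± 1.04 in Igf2 cKO and 25.4% ± 3.11 in control muscle (SD, n = 3 each). This rescaling was chosen after the data had been seen, and it leaves the fold changes as they were.

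**Figure D4:**
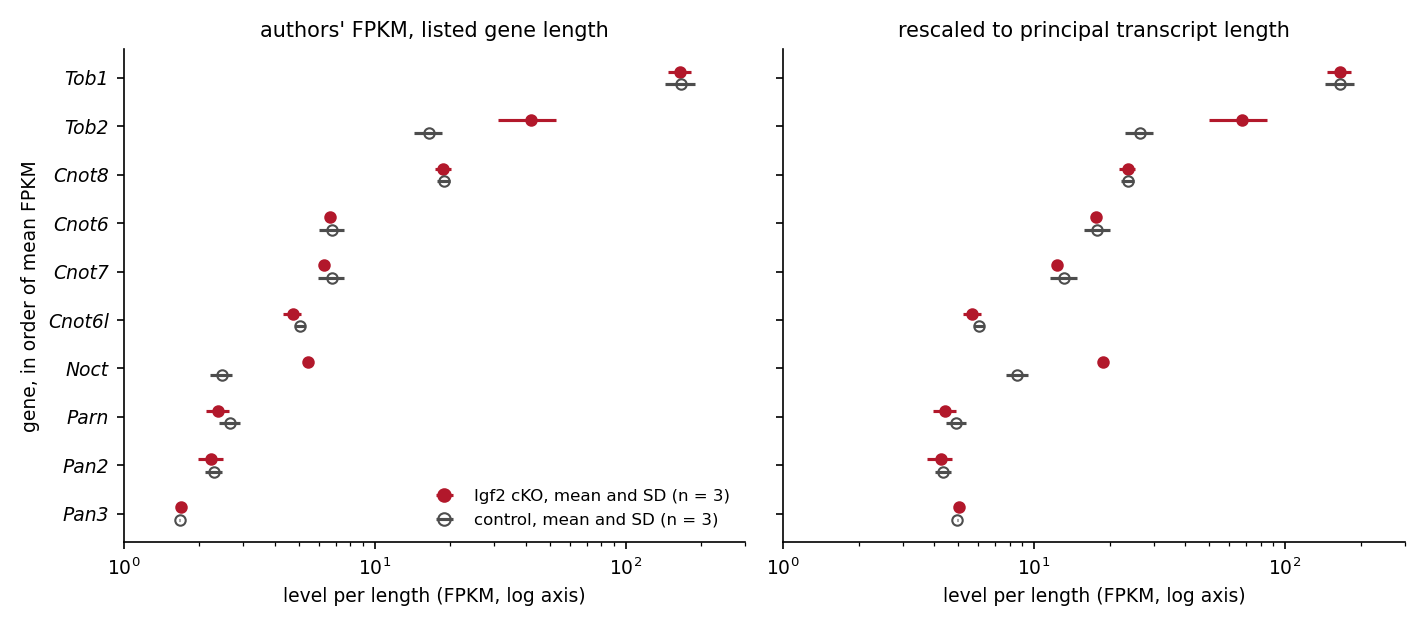
Mean level per length (FPKM, log axis) with SD for Igf2 cKO (filled red, upper) and control (open grey, lower) libraries, n = 3 each, on the authors' listed gene length (left) and on the principal transcript length (right). Tob1 leads on both scales, and Noct moves up relative to its neighbours on the right.

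Other genes that overlap the members in the genome were examined, since the labels do not state whether counting used strand. Inside Noct lies Gm38357, an unclassified transcript on the same strand, with 21, 11 and 10 counts in Igf2 cKO and 9, 2 and 7 in control replicates 1 to 3. These are few beside the 405 to 1032 counts of Noct. Gm49476, antisense to Tob2, had 0 counts in each library. Vps37a and Zdhhc2 overlap Cnot7 on the opposite strand, and Vps37a had more counts (1056 to 1664) than Cnot7 (598 to 712), so the Cnot7 count is uncertain to that extent. Gm12191, a processed pseudogene inside Cnot6 on the same strand, had 52 to 193 counts.

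Noct and Tob2 had a Pearson r of 0.88 between their log2 CPM, a description over 6 libraries. It holds the difference between the groups, on which both genes were chosen. Within each group the libraries ran in opposite order, with Noct highest and Tob2 lowest in replicate 2 of both groups. Noct with Tob1 had an r of 0.02, and Tob2 with Tob1 of 0.13. Over the 13777 tested genes with a mean of at least 1 CPM, the 5 whose log2 CPM was most like Noct were Dclre1b (r = 0.999), Arl2 (0.994), Fam107a (0.992), Dusp8 (0.99) and Ddit4 (0.99). Dclre1b, which encodes a DNA nuclease that acts at telomeres, was at 13.2, 13.4 and 12.4 CPM in Igf2 cKO and at 6.98, 8.06 and 7.32 CPM in control replicates 1 to 3. The log2 fold changes of the 5 ranged from 0.18 for Arl2, a small GTPase gene, to 2.95 for Ddit4, the mTORC1 inhibitor gene. Pearson r takes no account of size, and here too it holds the group difference on which Noct was chosen. The 5 most like Tob2 were Obsl1 (r = 0.992), Zfp638 (0.991), 1110002L01Rik (0.99), A530013C23Rik (0.988) and Ano10 (0.985). Obsl1, a cytoskeletal adaptor gene of the obscurin family, was at 94.3, 77.0 and 95.1 CPM in Igf2 cKO and at 67.4, 64.6 and 65.9 CPM in control replicates 1 to 3. Its low value in Igf2 cKO replicate 2, as in Tob2, follows from the choice by likeness and is not a separate result. That the 2 sets of 5 share no gene follows from these r values and the 0.88 of Noct with Tob2, and is not a separate result.

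The rest of the tail-shortening and decay pathway was read from 9 lists, of which 110 genes were in the table and 97 were tested. None of the 97 was called by edgeR or limma-voom at an adjusted p under 0.05, and DESeq2 called 4 (4.12%, against 1.48% of all tested genes). At an unadjusted p under 0.05 there were 11 (11.3%, against 9.93% of all tested genes), 5 higher and 6 lower in Igf2 cKO. Groups without overlap were seen for 16 of the 97 (16.5%, against 15.5% of all tested genes). The median log2 fold change of the 97 was -0.03, beside 0.00 for all genes tested. The shares by unadjusted p and by overlap lie near the background, the DESeq2 share is above it on 4 genes, and none of them is a result about the lists.

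The scaffold and other subunits of CCR4-NOT did not pass the test either. All 8 were tested, with log2 fold changes between -0.16 and 0.13 (median 0.04), and 0 of 8 were under an unadjusted p of 0.05 in edgeR or called by DESeq2 or limma-voom. Cnot3 was at 21.4 ± 2.53 CPM in Igf2 cKO and 23.9 ± 0.67 CPM in control muscle (SD, n = 3 each, edgeR adjusted p = 0.699), and Tnks1bp1, which binds the complex, had a log2 fold change of 0.13 (edgeR adjusted p = 0.788). The other nuclease genes of related fold or function (4 of 5 tested, median -0.02) also had 0 genes under an unadjusted p of 0.05 or called by another tool. Their smallest p belonged to Toe1, a nuclear deadenylase gene, at -0.24 (edgeR adjusted p = 0.819), and Angel2, of the CCR4-type fold, at -0.02 (edgeR adjusted p = 0.973).

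Of the other BTG/TOB genes, Btg1 lay in the opposite direction to Tob2. Btg1, whose product also binds the CAF1-type nucleases, was at 38.8, 32.6 and 39.2 CPM in Igf2 cKO and at 58.7, 58.2 and 44.5 CPM in control replicates 1 to 3. The groups did not overlap, and the log2 fold change was -0.55 ± 0.13 (SE), which missed the threshold by edgeR (adjusted p = 0.206) and passed it by DESeq2 (adjusted p = 0.0413). Btg3 had a log2 fold change of -0.20 (edgeR adjusted p = 0.72). In this list 3 of 4 genes were tested, of which 1 lay above 0 and 2 (Btg1 and Btg3) lay below. The median was -0.20, with 0 called by edgeR or limma-voom and 1 by DESeq2.

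Poly(A)-binding proteins, which guard the tail, and the polymerases that extend it were described next. The 6 tested genes of poly(A)-binding proteins and their regulators all lay below 0, where 7320 of all 14867 tested genes did. They lay between -0.26 and -0.03 (median -0.08), with 0 under an unadjusted p of 0.05 and 0 called by any of the 3 tools. Pabpc1, the main cytoplasmic form, was at 173 ± 16.4 CPM in Igf2 cKO and 198 ± 24.6 CPM in control muscle (SD, n = 3 each, edgeR adjusted p = 0.673), and Pabpn1, the nuclear form, at -0.26 (edgeR adjusted p = 0.684). Among 12 tested polymerase genes the median was -0.10, with 3 under an unadjusted p of 0.05, 0 called by edgeR or limma-voom and 1 by DESeq2. Tent5b, a noncanonical poly(A) polymerase gene, had the largest fold change of all 97, at 4.69, 5.26 and 2.78 CPM in Igf2 cKO and 1.25, 1.62 and 1.83 CPM in control replicates 1 to 3. Its log2 fold change of 1.44 ± 0.31 (SE) missed the threshold by edgeR (adjusted p = 0.162) and passed by DESeq2 (adjusted p = 0.00717). Tut4, a terminal uridylyltransferase gene, was at -0.41 ± 0.09 (SE, edgeR adjusted p = 0.177).

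The steps after deadenylation were read from the decapping and exosome lists. Of 22 tested decapping genes, 2 were under an unadjusted p of 0.05, 0 were called by edgeR or limma-voom and 1 by DESeq2 (median -0.03). Pnrc1, whose product is tied to decapping and to nuclear receptors, was at 85.0, 95.1 and 89.6 CPM in Igf2 cKO and at 116.5, 114 and 125 CPM in control replicates 1 to 3. Pnrc1 thus missed the threshold by edgeR (adjusted p = 0.19) and passed it by DESeq2 (adjusted p = 0.0271), with a log2 fold change of -0.40 ± 0.09 (SE). Lsm7, of the ring that binds deadenylated ends, was at 0.44 (edgeR adjusted p = 0.45). Of 16 tested exosome and related genes, 12 lay above 0, where 7547 of all 14867 tested genes did. The median was 0.08, with 1 gene under an unadjusted p of 0.05 and 0 called by edgeR, DESeq2 or limma-voom. That gene was Exosc3, a cap subunit of the exosome, at 15.3 ± 0.84 CPM in Igf2 cKO and 11.1 ± 0.24 CPM in control muscle (SD, n = 3 each, log2 fold change 0.46, edgeR adjusted p = 0.202), and Exosc5 followed at 0.24 (edgeR adjusted p = 0.658).

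Genes of RNA-binding proteins, among them recruiters of deadenylases to chosen messages, and of miRNA effectors formed the last lists. Of 19 tested genes of the RNA-binding list, 2 were under an unadjusted p of 0.05. None passed edgeR, DESeq2 or limma-voom after adjustment, a count of 0 (median -0.02). Zfp36l2, of the family that binds AU-rich elements, was at 90.0, 61.9 and 52.1 CPM in Igf2 cKO and 118, 120.5 and 87.8 CPM in control replicates 1 to 3, which overlap (log2 fold change -0.68 ± 0.21 SE, edgeR adjusted p = 0.311). Elavl1, which encodes the stabilising protein HuR, was at 0.24 (edgeR adjusted p = 0.408). Of the 7 miRNA effector genes 6 lay below 0, where 7320 of all 14867 tested genes did, with a median of -0.21, 2 under an unadjusted p of 0.05, 0 called by edgeR or limma-voom and 1 by DESeq2. Tnrc6b, a scaffold that links Argonaute to CCR4-NOT, was at 82.7, 73.5 and 90.6 CPM in Igf2 cKO and 118, 108 and 129 CPM in control replicates 1 to 3. The groups did not overlap, and Tnrc6b had a log2 fold change of -0.52 ± 0.11 (SE), with an adjusted p of 0.162 by edgeR and 0.0107 by DESeq2. Ago1, an Argonaute gene, was at -0.35 ± 0.09 (SE, edgeR adjusted p = 0.244).

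**Figure D5:**
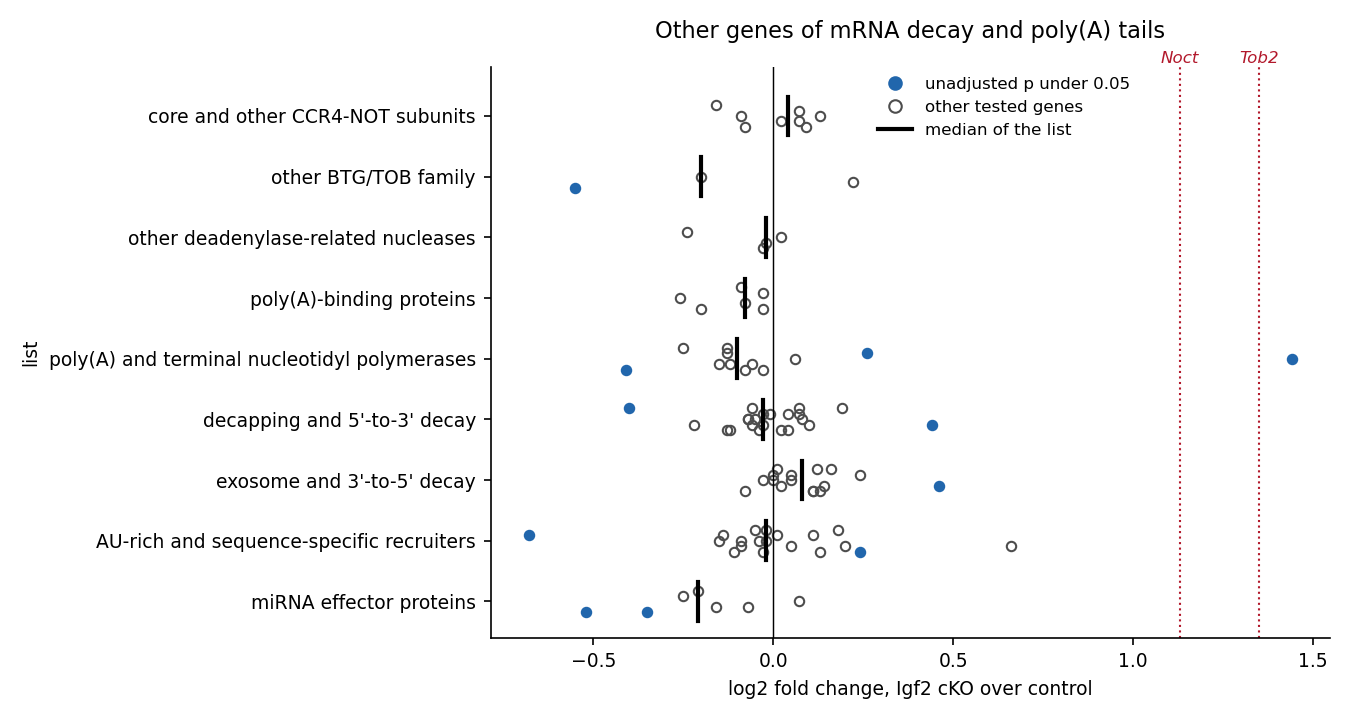
Log2 fold change of Igf2 cKO over control for the 97 tested genes of 9 lists (points, blue for an unadjusted p under 0.05), with each list's median as a black bar and dotted lines at Noct and Tob2. The medians lie between -0.21 and 0.08, and Tent5b at 1.44 is the point beyond the dotted lines.

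The 6 libraries held 16184371 to 17503334 counts in Igf2 cKO and 16335647 to 17905203 in control muscle. Igf2 itself had 33, 37 and 42 counts in Igf2 cKO and 60, 43 and 39 in control replicates 1 to 3 (log2 fold change -0.31 ± 0.25 SE, edgeR adjusted p = 0.751), and a count over the whole gene, cells without Cre included, does not check the deletion of exon 2. The tissue label was checked with 12 skeletal muscle fibre markers, all detected in each library. Their summed level was 115900 to 144200 CPM in Igf2 cKO and 144700 to 172600 CPM in control muscle. The groups did not overlap, but Igf2 cKO replicate 1 (144200 CPM) and control replicate 2 (144700 CPM) nearly met. Of the 12 fibre markers 0 were called by edgeR at an adjusted p under 0.05. The summed level of the 5 red cell markers did not overlap either, at 313 to 358 CPM in Igf2 cKO and 449 to 617 CPM in control muscle. Of these 5 markers 0 were called by edgeR. Among single tested genes, 15.5% had groups without overlap in either direction. In bulk tissue fewer cells of a type and less RNA per cell cannot be told apart, and the part of either list in the Noct and Tob2 values was not tested. The summed levels of the other lists overlapped between the groups. These levels were 672 to 1659 CPM in Igf2 cKO and 515 to 901 CPM in control muscle for 9 adipocyte markers, with Igf2 cKO replicate 3 the high library, and 180 to 259 CPM in Igf2 cKO and 145 to 303 CPM in control muscle for 10 macrophage and leukocyte markers. They were 733 to 1164 CPM in Igf2 cKO and 1069 to 1212 CPM in control muscle for 6 endothelial markers, and 4164 to 6108 CPM in Igf2 cKO and 3421 to 7886 CPM in control muscle for 5 fibroblast markers. They were 192 to 840 CPM in Igf2 cKO and 163 to 494 CPM in control muscle for 5 Schwann cell markers, and 14 to 17.8 CPM in Igf2 cKO and 15.4 to 18.0 CPM in control muscle for 3 satellite cell markers. None of the marker genes of these 8 lists was at 0 in any library.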

How the data were processed

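Per the labels, a company sequenced Trizol-extracted RNA of 3 Igf2 cKO and 3 control mice with an Illumina NovaSeq. Neither aligner, counter, strand setting, build nor annotation is stated. The deposited table, per its file headers, holds a raw count and an FPKM per gene and library, and the authors' log2 fold change and p-value for 3 comparisons of single libraries. Another 6 columns of per-sample values were not used. Of 54495 gene identifiers found in GENCODE M21 (GRCm38), 98.3% have the same start and end there.

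Counts of all genes were tested with edgeR 4.0.16 (quasi-likelihood, TMM, filterByExpr, genotype as the single term, Benjamini-Hochberg over 14867 genes) in R 4.3.3. DESeq2 1.42.0 and limma-voom (limma 3.58.1) were alternatives. P-values measure only the spread between 3 libraries per group. Promoter windows came from RefSeq. Alternatives are listed with their effect in the closing section.

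The members and lists were chosen with earlier results of these data known. Named genes are the 10 members, the called genes of each list or else the 2 with the smallest p, the 5 most like Noct and Tob2, and overlapping genes.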

Additional observations from a re-analysis of the deposited data

How the results depend on the processing

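Calls of Noct and Tob2 under other settings rest on the libraries they were chosen in and support nothing. With 1 library left out, between 1 and 2 of the 10 genes were past the threshold. The count over all genes was 37, and became 282 with no low-count filter, 220 with DESeq2, 235 under the series' rule (unadjusted p under 0.05, absolute log2 fold change over 1), and 8 (without control replicate 1) to 68 (without Igf2 cKO replicate 2) with 1 library left out, with 17 without Igf2 cKO replicate 3, 15 without control replicate 2 and 13 without control replicate 3. Of the 97 listed genes, 4 were called with no low-count filter, 4 with DESeq2 and 1 (Tent5b) under the series' rule. Log2 fold changes near 0 changed sign with 1 library left out, and ranged from -0.11 to 0.08 for Tob1, -0.11 to 0.05 for Cnot6, -0.07 to 0.03 for Cnot8, -0.09 to 0.05 for Pan2 and -0.08 to 0.05 for Angel2. On principal transcript length 4 of the 10 genes kept their place by level. The cause of these changes was not tested. With the replicate number as a block 35 genes were called, with 2 members and 0 listed genes among them. Same-numbered libraries had correlations of their deviations of 0.16, 0.06 and -0.04 over genes, so the numbers were not treated as pairs. Among the 10 genes Parn had the fewest counts (183 to 278), and its SE of 0.13 was close to the 0.14 of Tob1 (5401 to 7126 counts).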
